A study of Mus musculus with 9 samples.

Results

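The 9 Wnt ligand genes and R-spondin 1 described here were followed in whole mouse ovary: Wnt7b, Wnt2, Wnt2b, Wnt4, Wnt5a, Wnt5b, Wnt6, Wnt9a, Wnt11 and Rspo1. These 10 genes, of 33450 rows in the deposited table, were chosen by name around Wnt7b, which was itself selected on its low value in obese mice, to ask whether it was low alone. Its fold against Control is therefore a description. Ovaries came from C57BL/6J mice, an inbred strain, aged 15 weeks and fed for 10 weeks. In the Control group 3 mice ate a standard chow with 16% fat. The other 6 mice ate a diet with 60% fat. Of these, 3 stayed lean (HFLN) and 3 became obese (HFOB), so HFLN and HFOB were told apart by the response of the animal and not by assignment. The table gives 1 FPKM per gene and group (fragments mapped to a gene, scaled to transcript length and to the size of the library) with a lower and an upper bound. Single animals were not analysed here, and each value stands for 3 mice with no SD or p-value.

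Wnt proteins are secreted, lipid-modified signals. The acyltransferase Porcn attaches the lipid, Wls carries the protein to the cell surface, and Frizzled receptors with Lrp5 or Lrp6 receive it. In the canonical branch the signal stabilises beta-catenin, which acts with Tcf and Lef factors on target genes such as Axin2. Other Wnt proteins, Wnt5a and Wnt11 among them, act mostly without beta-catenin. R-spondins raise the sensitivity of cells to Wnt by binding Lgr receptors and removing the ligases Rnf43 and Znrf3, which otherwise clear Frizzled from the membrane. In the mammalian gonad Rspo1 and Wnt4 promote ovarian over testicular differentiation, and Wnt4 also acts in follicle growth.

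RefSeq promoter sequence was matched to 8 of the 10 genes in 11 windows on GRCm38.p6, the assembly behind mm10. No entry was matched for Wnt5a and Wnt7b. The core of the Tcf and Lef site was searched on both strands as CTTTGAT or CTTTGAA in the 250 bases before each start. It occurred in 2 of the 11 windows, 1 of Wnt11 and 1 of Wnt5b, and in 7.48% of all 32851 windows in the table. Shown here, 5′ to 3′, are the windows of Wnt4, which had the highest level of the 10 genes, of Rspo1, the 1 gene among them that is no Wnt, and of Wnt11, which holds the core. They lie on the plus strand at chr4:137277385-137277634 (Wnt4), chr4:124986180-124986429 (Rspo1) and chr7:98834862-98835111 (Wnt11). Capitals mark the core, which reads on the reverse strand in Wnt11 and begins 51 bases before the start.
Wnt4: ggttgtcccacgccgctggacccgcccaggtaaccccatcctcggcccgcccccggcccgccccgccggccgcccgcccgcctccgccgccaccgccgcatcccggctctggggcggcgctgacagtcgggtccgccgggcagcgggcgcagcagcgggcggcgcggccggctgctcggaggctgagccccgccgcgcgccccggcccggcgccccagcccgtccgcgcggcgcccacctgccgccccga
Rspo1: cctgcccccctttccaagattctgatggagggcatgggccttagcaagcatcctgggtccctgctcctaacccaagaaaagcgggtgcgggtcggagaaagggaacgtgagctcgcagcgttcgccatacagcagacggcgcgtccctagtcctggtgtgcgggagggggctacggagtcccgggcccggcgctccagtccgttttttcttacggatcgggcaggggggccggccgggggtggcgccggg
Wnt11: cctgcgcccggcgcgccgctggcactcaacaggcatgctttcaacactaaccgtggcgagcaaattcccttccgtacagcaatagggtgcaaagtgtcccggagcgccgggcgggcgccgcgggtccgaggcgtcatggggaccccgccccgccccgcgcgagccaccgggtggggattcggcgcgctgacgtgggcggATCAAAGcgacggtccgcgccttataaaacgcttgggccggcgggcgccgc
The Wnt4 window had 85.2% G and C, that of Rspo1 66.8% and that of Wnt11 70.8%. The match is a description of letters and shows no binding.

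Wnt7b, a ligand best known from lung and kidney development, stood at 7.84 FPKM in Control, at 2.11 in HFLN and at 1.10 in HFOB. The deposited bounds were 3.49 to 12.2, 0.707 to 3.52 and 0.170 to 2.04. Control was thus the high group and both groups on the high-fat diet were low. The Control interval did not meet that of HFOB, and it met that of HFLN by 0.0335 FPKM. Control stood 7.11 times above HFOB and 3.71 times above HFLN. As log2 ratios of FPKM + 1, a scale on which folds of low genes come out too small, the differences from Control were -2.07 for HFOB and -1.51 for HFLN. HFLN stood 1.92 times above HFOB, and those intervals overlapped along much of their length. Among 13064 protein-coding rows of at least 1 FPKM, Wnt7b had the sixth lowest log2 fold in HFOB against Control and ranked 18 from the lowest in HFLN against Control. Both comparisons share the Control value, which stands for the same 3 mice.

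Wnt7b lies on chromosome 15, from 85535437 to 85581821 in the RefSeq annotation of GRCm38.p6, and the row covers all of its exons. The noncoding gene AU022754 overlaps its start on the opposite strand. The row of AU022754 stood at 0.149 FPKM in Control, at 0.176 in HFLN and at 0.0743 in HFOB, below that of Wnt7b in each group. The library kit keeps the strand, but no source used here says whether the counting used it. Of the 10 genes, 6 overlap a gene annotated on the opposite strand: Wnt7b, Wnt5a, Wnt5b, Wnt6, Wnt11 and Rspo1.

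**Figure D1:**
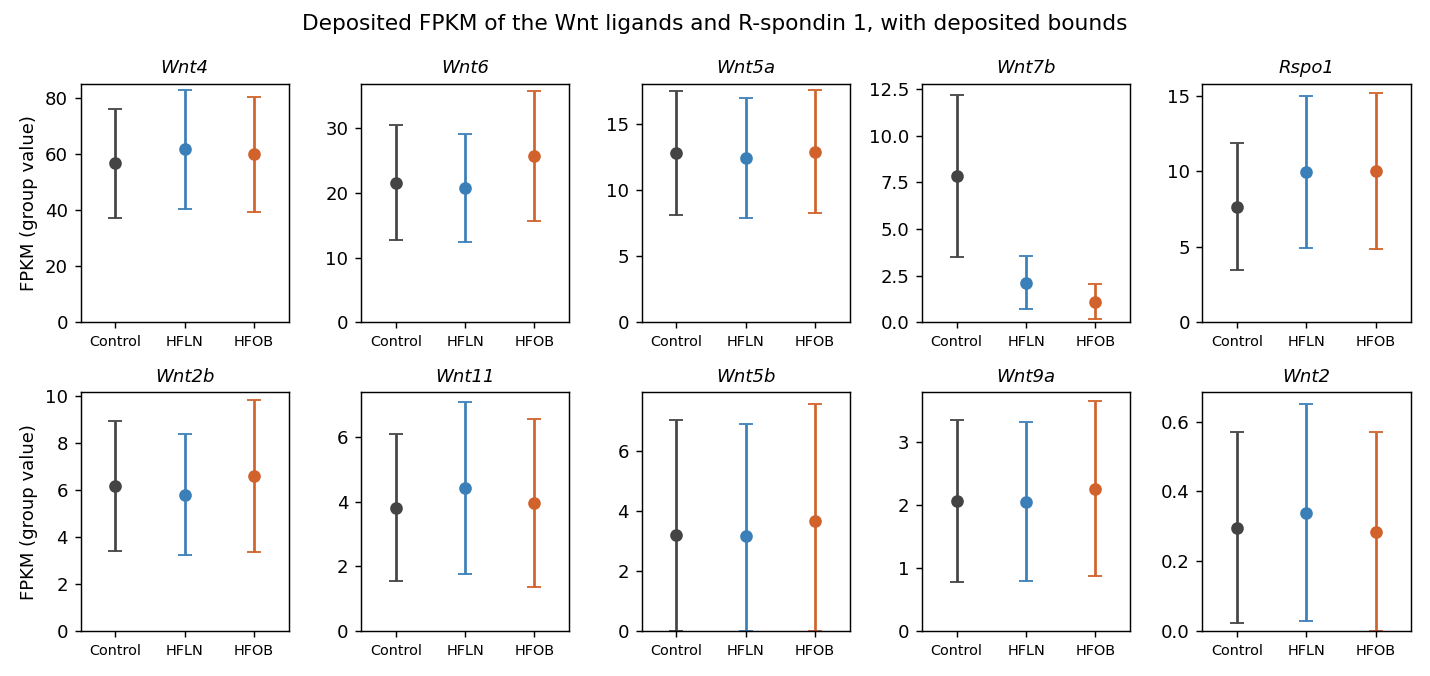
FPKM of the 10 genes, 1 panel per gene in the order of their Control values, with points for the deposited group value and bars for the deposited bounds. Wnt7b falls from 7.84 FPKM in Control to 2.11 in HFLN and 1.10 in HFOB, while in the other panels all 3 intervals overlap.

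A gene was called when its fold was at least 2 on the log2(FPKM + 1) scale, its deposited intervals did not overlap, and it reached 1 FPKM in at least 1 group. Of the 10 genes, 9 reached that level and Wnt2 did not. In HFOB against Control 1 of the 9 was called, Wnt7b, beside 0.366% of all 16929 rows considered. That share is given as background and nothing is read from it, since this contrast chose Wnt7b. In HFLN against Control 0 of 9 were called, beside 0.283% of 16932 rows, and in HFOB against HFLN 0 of 9, beside 0.195% of 16931. The low Wnt7b was thus the 1 call among these genes, and no other member came near it: the other 8 lay between 0.01 and 0.35 in HFOB and between -0.08 and 0.34 in HFLN, as log2 folds against Control.

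The median log2 fold of the 9 genes was 0.08 in HFOB against Control, with 8 genes higher and 1 lower, where all rows had a median of -0.01. In HFLN it was -0.02, with 6 genes lower and 3 higher, and all rows had 0.00037. Between HFOB and HFLN it was 0.05, against -0.01 over all rows, with 6 genes higher and 3 lower, and after the rescaling described next -0.06, with 4 higher and 5 lower. Signs this close to 0 can follow the scaling of the groups, as those in the comparisons with HFLN did. When each group was rescaled to the same summed FPKM of protein-coding rows, HFLN values rose against Control by a log2 ratio of 0.22 before the pseudocount, and the median of all rows became 0.19. Then 8 of the 9 genes were higher in HFLN than in Control and Wnt7b alone was lower. In HFOB against Control the counts stayed at 8 higher and 1 lower. The rescaling raised HFOB too, by 0.09, and so could not lower that count of 8. Wnt7b was lower than Control in both diet groups under that scaling too, at -1.34 in HFLN and -1.99 in HFOB.

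Wnt4, a ligand of ovarian differentiation and follicle growth, was the most abundant of the 10 genes and the one with the narrowest Control interval relative to its value. It stood at 56.7 FPKM (37.2 to 76.2) in Control, at 61.7 (40.5 to 82.8) in HFLN and at 59.97 (39.4 to 80.5) in HFOB. The 3 values lay within 5 FPKM of each other inside intervals about 40 FPKM wide. Rspo1 stood at 7.64 FPKM (3.42 to 11.8) in Control, at 9.97 (4.94 to 15.0) in HFLN and at 10.01 (4.81 to 15.2) in HFOB. It had the highest log2 fold of the 9 genes in both diet groups, 0.34 in HFLN and 0.35 in HFOB, and all its intervals overlapped. In Control Wnt7b and Rspo1 had nearly the same level, whereas in HFLN and in HFOB Rspo1 stood above Wnt7b with intervals apart.

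Wnt6, a ligand of epithelial tissues, stood at 21.6 FPKM (12.7 to 30.5) in Control, at 20.8 (12.4 to 29.1) in HFLN and at 25.7 (15.7 to 35.7) in HFOB. Its HFOB value was the highest of the 3, at a log2 fold of 0.24 against Control, well inside the intervals. Wnt2b, a close relative of Wnt2, stood at 6.18, 5.81 and 6.60 FPKM in Control, HFLN and HFOB. Wnt9a, known from joint formation, stood at 2.06, 2.05 and 2.25 FPKM. Both genes differed between groups by far less than the width of their intervals. Wnt2 stood at 0.296, 0.340 and 0.284 FPKM, below the minimum in each group, and could not be called.

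Of the ligands that act mostly without beta-catenin, Wnt5a stood at 12.8 FPKM (8.12 to 17.5) in Control, at 12.4 (7.88 to 17.0) in HFLN and at 12.9 (8.27 to 17.6) in HFOB. These were the most even values among the 10 genes. Wnt11 stood at 3.83 FPKM (1.54 to 6.11) in Control, at 4.44 (1.76 to 7.11) in HFLN and at 3.97 (1.37 to 6.57) in HFOB. Wnt5b stood at 3.20, 3.14 and 3.67 FPKM, with lower bounds of 0 in each group. A further row of Wnt5b held 1.47, 1.66 and 1.70 FPKM, so that gene is given on more than 1 row. In neither row did a group stand apart.

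How large a difference could have been seen differed from gene to gene. With the relative width of the Control interval in both groups, the intervals of Wnt4 would part at a 2.05-fold difference, those of Wnt5a at 2.15-fold, of Wnt6 at 2.40-fold and of Wnt2b at 2.64-fold. For Rspo1, Wnt7b, Wnt11 and Wnt9a the difference needed was 3.46-fold, 3.50-fold, 3.97-fold and 4.31-fold. Wnt7b differed 3.71-fold between Control and HFLN and its intervals still met, since its relative half-width was 55.5% in Control and 66.6% in HFLN. For Wnt2 it was 26.3-fold, and for Wnt5b, whose interval reaches 0, there was none. Smaller differences in these genes were not detectable with the deposited intervals, whose confidence level no source used here gives.

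In Control the order from high to low was Wnt4, Wnt6, Wnt5a, Wnt7b, Rspo1, Wnt2b, Wnt11, Wnt5b, Wnt9a and Wnt2, in FPKM, which accounts for transcript length. Wnt4 stood apart from Wnt6, and Wnt9a from Wnt2. The intervals of all other neighbours in that order overlapped. In HFLN and HFOB the other 9 genes kept the same order among themselves, and Wnt7b alone changed place, from rank 4 in Control to 8 in HFLN and 9 in HFOB. In HFOB it lay between Wnt9a and Wnt2, and its interval overlapped those of both.

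**Figure D2:**
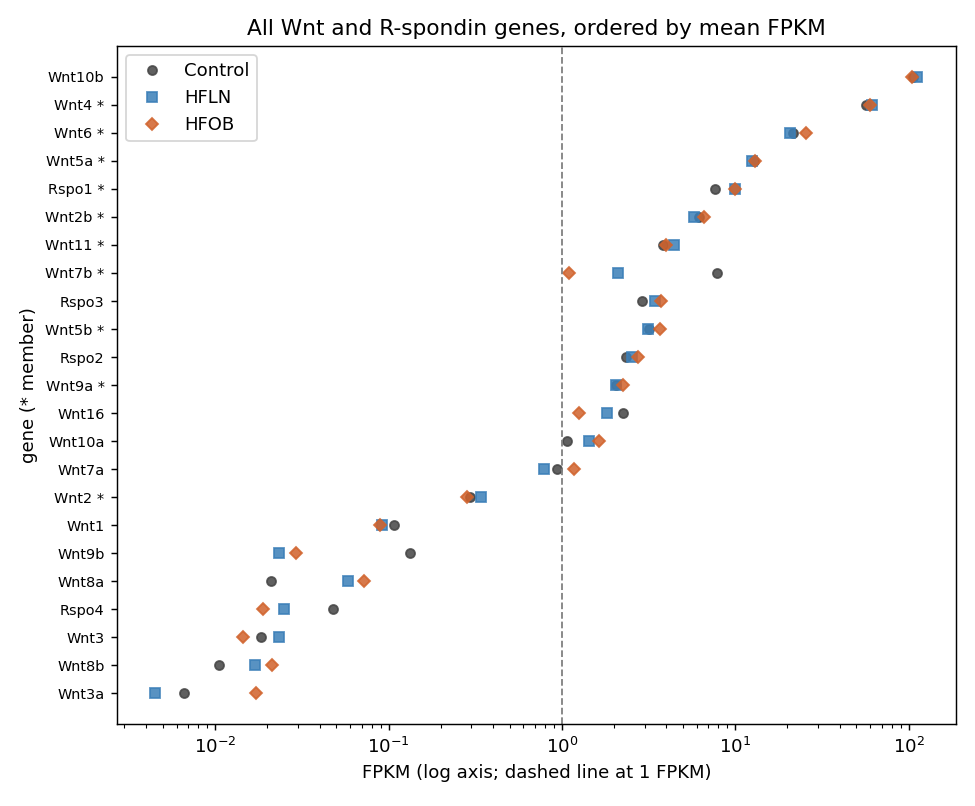
FPKM of all 23 Wnt and R-spondin genes on a log axis, with circles for Control, squares for HFLN and diamonds for HFOB, and a dashed line at 1 FPKM. Among the genes above that line, Wnt7b is spread widest, from 1.10 FPKM in HFOB to 7.84 in Control.

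The mouse has 19 Wnt genes, of which 12 reached 1 FPKM in a group and 7 did not, and 4 R-spondin genes. Wnt10b, known for holding back adipocyte differentiation, had the highest level of the family, at 105 FPKM (61.7 to 149) in Control, at 112 (70.2 to 154.5) in HFLN and at 105 (65.5 to 145) in HFOB. It made up 46.96% of the summed FPKM of all Wnt genes in Control. That sum stood at 225 FPKM in Control, at 229 in HFLN and at 226 in HFOB. The share of Wnt7b in it was 3.49%, 0.922% and 0.488%. In the deposited values the summed Wnt level thus stayed within a few FPKM while the share of Wnt7b was 7 times smaller in HFOB than in Control. The rescaling multiplies Control by 0.932, HFLN by 1.08 and HFOB by 0.995. The even sums therefore hold for the deposited scaling only.

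Wnt7a, the closest relative of Wnt7b and a gene of the female reproductive tract, stood at 0.940, 0.787 and 1.17 FPKM in Control, HFLN and HFOB. Its value was highest in HFOB, where that of Wnt7b was lowest. Its intervals overlapped and would part only at a 9.89-fold difference, so its pattern cannot be told from these values. Wnt16 stood at 2.26 FPKM (0.351 to 4.16) in Control, at 1.82 (0.418 to 3.21) in HFLN and at 1.26 (0.0880 to 2.44) in HFOB. After Wnt7b it had the next lowest log2 folds of the family against Control, -0.21 in HFLN and -0.53 in HFOB, with overlapping intervals, and -0.06 and -0.46 after the rescaling. Wnt10a stood at 1.07, 1.44 and 1.63 FPKM. Among the other R-spondins, Rspo2 stood at 2.36, 2.54 and 2.74 FPKM and Rspo3 at 2.91, 3.45 and 3.73, and Rspo4 stayed below 1 FPKM. In FPKM, Rspo1, Rspo2 and Rspo3 were each lowest in Control, under the rescaling as well, by less than their intervals. Of the 13 genes of the family outside the members, 6 could be called and none was, in any of the 3 comparisons.

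**Figure D3:**
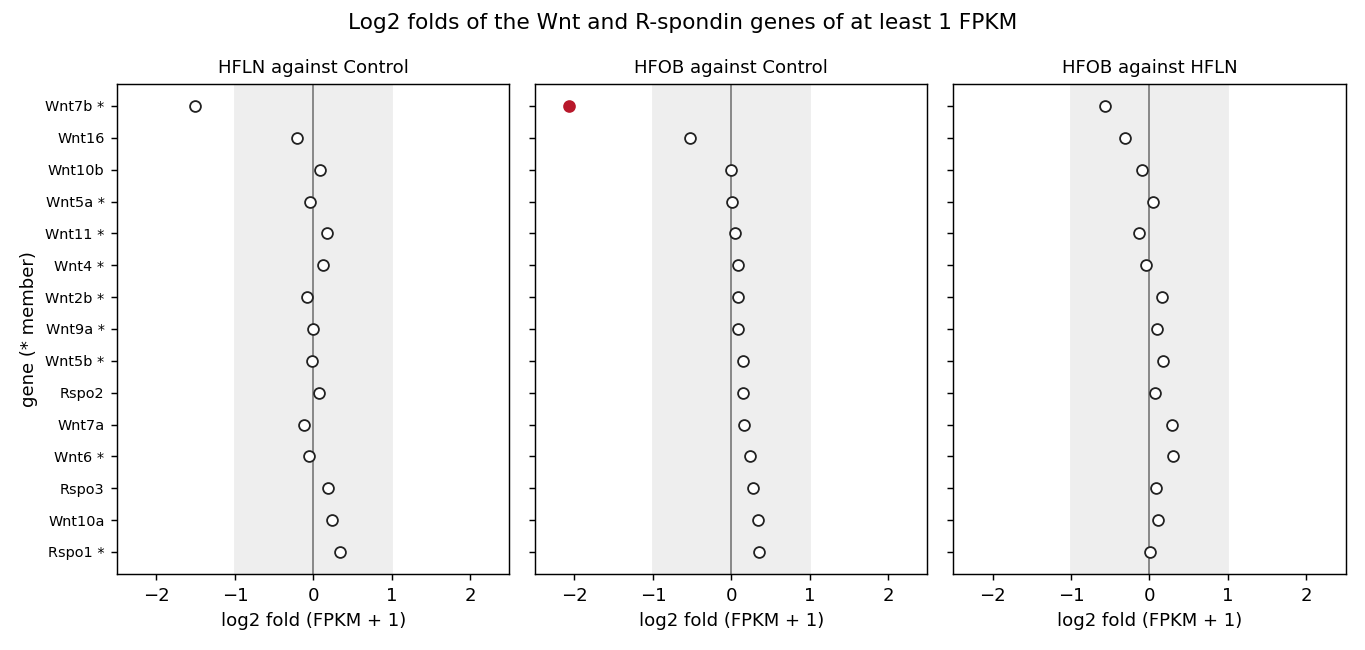
Log2 folds on the FPKM + 1 scale for the 15 Wnt and R-spondin genes of at least 1 FPKM, 1 panel per comparison, with filled points for called genes, open points for the others and grey where the fold is below 2. Only Wnt7b in HFOB against Control, at -2.07, is filled, and Wnt7b in HFLN against Control lies outside the grey at -1.51.

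The rest of the pathway was read from lists of 63 further genes, of which 54 reached 1 FPKM. None of the 54 was called in any of the 3 comparisons. Their median log2 fold against Control was -0.03 in HFLN and -0.01 in HFOB. A log2 fold of 0.5 or more against Control in either direction was seen in 2 genes in HFLN, Porcn and Sfrp2, and in 2 in HFOB, Porcn and Sfrp4.

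Porcn, the enzyme that acylates Wnt proteins, came closest to the pattern of Wnt7b. It stood at 29.4 FPKM (13.4 to 45.3) in Control, at 14.9 (6.98 to 22.7) in HFLN and at 11.5 (3.92 to 19.1) in HFOB. The order of the groups was the same as for Wnt7b, but the Control interval overlapped both others, so Porcn was not called. Its log2 folds against Control were -0.94 in HFLN and -1.28 in HFOB, and -0.73 and -1.19 after the rescaling. Wls, the carrier of Wnt proteins to the surface, stood at 35.5, 38.1 and 37.1 FPKM in Control, HFLN and HFOB. Notum, which removes the lipid outside the cell, stood at 2.79, 3.16 and 2.14 FPKM.

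Of the 8 Frizzled receptor genes measured, none had a log2 fold beyond 0.29 in either diet group. Fzd1, the most abundant, stood at 16.3, 15.7 and 17.8 FPKM in Control, HFLN and HFOB, Fzd2 at 8.80, 7.02 and 8.80, and Fzd4 at 10.2, 9.99 and 8.88. The 8 co-receptors and alternative receptors were as even. Ptk7 stood at 43.8, 45.1 and 46.1 FPKM and Ror2, a receptor of Wnt5a, at 7.16, 6.30 and 6.62. Adgra2, which with Reck serves as a co-receptor for Wnt7a and Wnt7b in brain vessels, stood at 8.56, 8.57 and 9.42 FPKM. Of all 16 receptor genes in these lists, none was called.

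The 3 R-spondin receptor genes each had their lowest value in HFOB. Lgr4 and Lgr6, like Adgra2 above and Apc below, are given on 2 rows, of which only the one higher on average was read. Lgr4 stood at 23.3, 23.6 and 18.5 FPKM in Control, HFLN and HFOB, Lgr5 at 10.4, 8.84 and 8.02, and Lgr6 at 7.26, 7.52 and 5.38. Their log2 folds in HFOB against Control were -0.31, -0.34 and -0.37, with overlapping intervals, and were still below 0 after the rescaling, at -0.22, -0.25 and -0.29. Rspo1, their ligand, was higher in HFOB than in Control, as given above.

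Of the secreted inhibitors, 6 of 13 reached 1 FPKM. Sfrp4, a Frizzled-related protein that is abundant in luteal cells, stood at 1404 FPKM (216 to 2592) in Control, at 1056 (397 to 1716) in HFLN and at 975 (371 to 1579) in HFOB, far above every ligand. Sfrp2 stood at 10.1 FPKM (4.77 to 15.4) in Control, at 5.34 (2.31 to 8.37) in HFLN and at 7.72 (3.63 to 11.8) in HFOB. Neither was called. Of 17 genes inside the cell, Ctnnb1, which encodes beta-catenin, stood at 213, 223 and 211 FPKM, Apc, part of the complex that destroys it, at 4.81, 3.46 and 3.94, and the transcription factor Tcf7 at 30.2, 26.3 and 26.6.

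Targets of beta-catenin gave no common direction in HFOB against Control, with 7 of 14 higher and 7 lower and a median log2 fold of -0.04. In HFLN 9 of 14 were higher, with a median of 0.13. After the rescaling, which took the median of all rows to 0.19, 11 of 14 were higher. In HFOB against HFLN 5 were higher and 9 lower. After the rescaling, which lowered HFOB against HFLN, 1 was higher and 13 lower. Sp5, a direct target, stood at 1.20 FPKM (0.213 to 2.18) in Control, at 1.81 (0.473 to 3.14) in HFLN and at 1.88 (0.447 to 3.31) in HFOB. Myc, which many other pathways control too, stood at 104, 82.4 and 85.6 FPKM. Axin2, the usual readout of the pathway, stood at 10.4, 11.4 and 11.4 FPKM in Control, HFLN and HFOB, above Control in both diet groups by less than its intervals. It is named beyond the rule for named genes, after its values were seen.

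**Figure D4:**
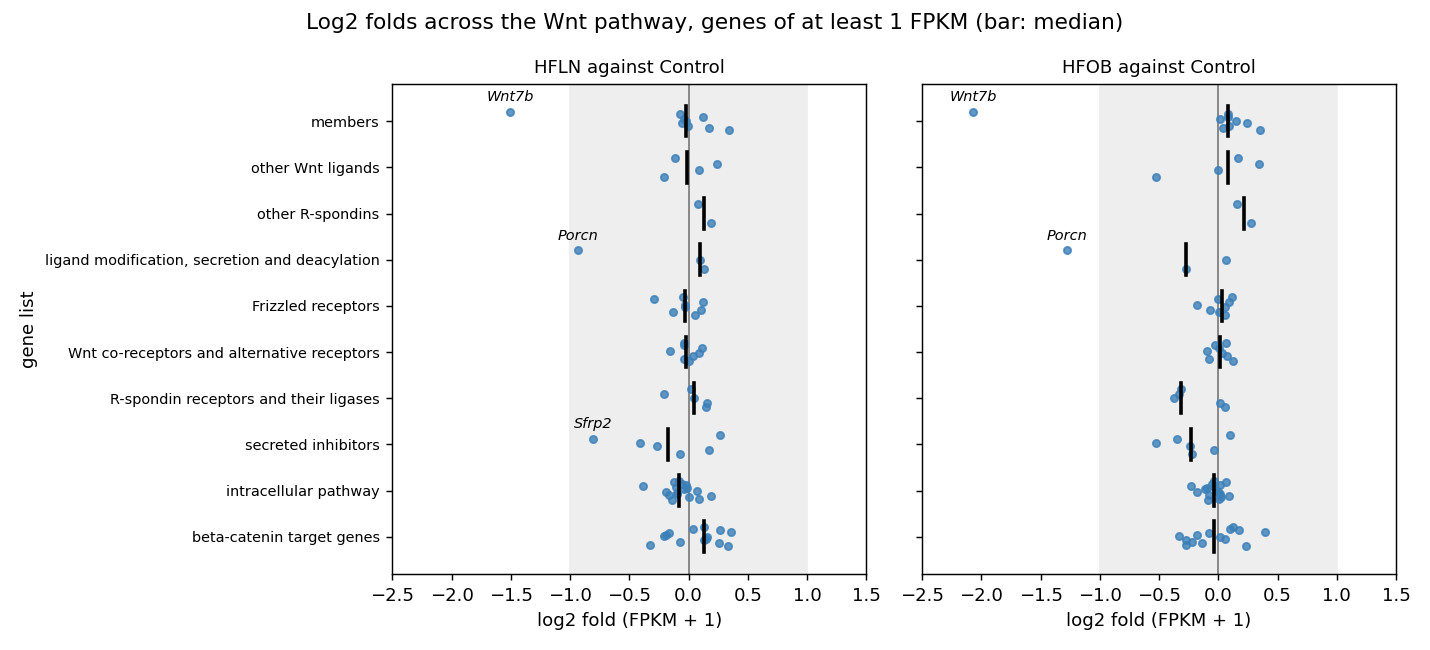
Log2 folds on the FPKM + 1 scale against Control for the genes of at least 1 FPKM in each list of the pathway, HFLN at left and HFOB at right, with 1 point per gene, a bar at the list median and grey where the fold is below 2. Wnt7b and Porcn lie farthest to the left, at -1.51 and -0.94 in HFLN and at -2.07 and -1.28 in HFOB.

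The 5 protein-coding genes whose pair of log2 folds against Control lay nearest to that of Wnt7b, over the 3 group values, were Srxn1, Rem2, Timp1, Fosb and Arc. None is a gene of the Wnt lists. Srxn1, Fosb and Arc were called in both diet groups, Rem2 in HFOB, and Timp1 in neither. Distances ran from 0.18 log2 units for Srxn1, which repairs oxidised peroxiredoxins, to 0.36 for Arc, an immediate-early gene. Srxn1 stood at 55.4, 17.4 and 13.9 FPKM in Control, HFLN and HFOB. Rem2, a small GTPase, stood at 5.85 FPKM in Control, at 1.38 in HFLN and at 0.873 in HFOB, close to the levels of Wnt7b. Fosb, a subunit of the AP-1 transcription factor, stood at 5.75, 1.08 and 0.826 FPKM. In each of the 5 genes Control was high and HFOB was slightly below HFLN, which follows from how they were picked. The Control value enters both folds of every gene here.

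Whole-ovary RNA cannot tell fewer cells of a type from less RNA per cell. All 8 markers of the surface epithelium were higher in HFLN than in Control, and their summed level stood at 394 FPKM in Control, at 472 in HFLN and at 383 in HFOB. All 8 markers of the oviduct and its cilia were likewise higher in HFLN and all 8 were lower in HFOB, with sums of 463, 586 and 373 FPKM. In HFOB 3 of the 8 surface markers were higher than in Control and 5 lower. Wnt7b was lower than Control in both diet groups, while both sums were highest in HFLN and lowest in HFOB. The summed markers of oocytes, endothelium and macrophages stood at 198, 115 and 232 FPKM in Control, at 201, 110 and 228 in HFLN, and at 215, 104 and 238 in HFOB. Of the 6 stromal markers, Col1a2 had a failed estimate in HFOB, and the other 5 summed to 512, 509 and 517 FPKM in Control, HFLN and HFOB. Those of granulosa and theca cells were highest in Control in the deposited FPKM, as was Wnt7b: 2551, 2107 and 2250.1 FPKM in Control, HFLN and HFOB for granulosa cells, and 7259.9, 6249.9 and 6414 for theca cells. In HFLN against Control 1 of 8 granulosa and 1 of 5 theca markers were higher, and after the rescaling 3 of 8 and 2 of 5. In HFOB against Control 3 of 8 and 0 of 5 were higher, and after the rescaling 3 of 8 and 1 of 5. Inha alone made up 1712 FPKM of the granulosa sum in Control, and Cyp11a1 and Hsd3b1, whose lower bounds are 0, made up 3608 and 3111 FPKM of the theca sum. The median log2 fold of the 8 granulosa markers against Control was -0.26 in HFLN and -0.12 in HFOB. Cyp19a1 was the lowest of them in both, at -0.49 and -0.72. Amh, a product of granulosa cells of growing follicles, stood at 181 FPKM in Control, at 176 in HFLN and at 187 in HFOB. Its log2 fold of 0.04 in HFOB was the highest of the granulosa list. The luteal sum was 2794, 1209 and 1606 FPKM, nearly all of it from the row of Akr1c18, which merges 2 genes. Smooth muscle stood at 1305, 1152 and 1321 FPKM and adipocytes at 131, 129 and 203. All 6 adipocyte markers were higher in HFOB than in HFLN and 4 of 6 higher than in Control, with median log2 folds of 0.74 and 0.66. Lep, which encodes the fat hormone leptin, was called in HFOB against both other groups, at log2 folds of 1.34 against Control and 1.22 against HFLN. The rescaling took its fold in HFLN against Control only from 0.12 to 0.17, as happens for genes of low FPKM. Plin1 and Retn were lower in HFOB than in Control, at -0.08 and -0.24. No defining marker was at 0, and the part of any of these cells in the level of Wnt7b was not tested.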

How the data were processed

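Messenger RNA of whole ovaries from 9 mice was sequenced with a stranded kit, per the labels' protocols. The submitters' notes on processing list, without roles or settings, Trimmomatic (0.32.3), TopHat2 (2.1.0), Cufflinks (2.2.1.0), Cuffdiff (version 2.2.1.3) and the build mm10. The authors deposited FPKM, 1 value per group with 2 bounds and a status, per the file headers. No source used here gives the annotation, scaling or use of strand, and read depth is unknown.

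Transcript identifiers were matched to RefSeq symbols of GRCm38.p6 (99.2% of 36886 matched), and where a symbol had several rows the one highest on average was used. Rows with a status of OK in both groups and at least 1 FPKM in a group were considered, with a pseudocount of 1 FPKM. No test was possible on group values. The genes named were all members, their relatives, the 5 genes nearest to Wnt7b in their folds and, in each other pathway list, any called gene, the 2 of widest fold and the 1 of highest mean. Marker genes are named outside that rule, after their values were seen. The members, lists and rules were chosen with earlier results of these data known. The error rate of the call rule on these data was not tested. Python 3.11.15 and pandas 2.3.3 were used. Alternatives covered the pseudocount, the minimum, the scaling, the summing of rows and the call rule.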

Additional observations from a re-analysis of the deposited data

How the results depend on the processing

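Wnt7b was called in HFOB against Control under all 8 alternatives, at log2 folds from -2.72 (pseudocount of 0.1 FPKM) to -1.99 (rescaled groups). Of these, only the rescaling could have removed the call. Centring the folds subtracted a median of -0.02, too small to matter here, and left the intervals as they were. The other alternatives relax the rule, enlarge the fold or leave the row of Wnt7b as it was. This contrast also chose Wnt7b. In HFLN against Control its fold ran from -1.84 to -1.34. It was called there under 1 alternative, the fold of at least 2 without the intervals, so that 1 member was called in place of 0. That rule alone called 249 rows in HFLN against Control, 216 in HFOB against Control and 208 in HFOB against HFLN, in place of 48, 62 and 33, since it asks less. It would also pass Porcn in HFOB. All 207 alternative log2 folds of members differed from the reported ones by less than the combined half-widths of the deposited intervals of both groups on that scale. Many of them could not differ, since the minimum and the call rule do not enter a fold and only Wnt5b had rows to sum. With intervals this wide, that agreement shows little. A minimum of 5 FPKM also leaves out Wnt5b, Wnt9a and Wnt11. No paired analysis was possible because the table holds 1 value per group, and for the same reason no animal could be left out.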

Other observations

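In all, 4 pairs of Wnt genes lie side by side in the mouse genome with no annotated gene between them. Wnt10b stood at 105 FPKM in Control and its neighbour Wnt1, which begins 11650 bases further along chromosome 15, at 0.107. Wnt6 stood at 21.6 FPKM in Control and Wnt10a, 6696 bases away on chromosome 1, at 1.07. Wnt9a stood at 2.06 FPKM and Wnt3a, 16097 bases away on chromosome 11, at 0.00660. Wnt9b and Wnt3, whose annotated spans overlap on chromosome 11, were both below 1 FPKM in every group. The order within the first 3 pairs was the same in HFLN and HFOB. Wnt7b belongs to none of these pairs.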
